A study of Mus musculus with 16 samples.

Results

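The regions described here are 6264 stretches of chromatin in regenerating mouse liver that carried H3K4me2 and H3K27ac in both Arid1a genotypes and lay far from the ends of genes. They were selected on measured values, from the 66832 H3K4me2 regions listed for the WT liver (9.37% of them). A region was taken when it lay on chromosomes 1 to 19, was at least 1000 and under 5000 bp wide, overlapped by at least 1 bp an H3K4me2 region of the KO liver and an H3K27ac region of each genotype, and was over 10000 bp from either end of any RefSeq gene. The livers came, 40 h after a partial hepatectomy in which most of the organ was cut away, from mice of postnatal day 90 on a mixed C57/B6 and 129 background. KO mice were Arid1a Fl/Fl; Alb-cre, and WT mice were Arid1a Fl/Fl with no Cre, so that both genotypes carried the floxed alleles. Cre under the albumin promoter acts in hepatocytes and not in the endothelial, blood-derived or stellate cells of the liver. Chromatin immunoprecipitation and sequencing (ChIP-seq) was made for H3K4me2 and H3K27ac with 1 library per genotype and mark, and for the transcription factor E2f4 with 2 libraries per genotype. Whether the E2f4 replicates were separate animals is not stated in the labels, and their spread could be technical.

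H3K4me2, dimethylation of lysine 4 on histone H3, lies on promoters and on enhancers, the distant elements that raise transcription of a gene. H3K27ac, acetylation of lysine 27 of the same histone, is laid down by p300 and CBP and separates active enhancers and promoters from primed ones. Arid1a belongs to the BAF form of the SWI/SNF remodeller, which opens chromatin at many enhancers, and in hepatocytes such elements are held by factors that include Hnf4a, Foxa2, Nr5a2 and the C/EBP proteins. E2f4 is an E2F family member that mostly binds promoters of cell cycle genes, with pocket proteins of the RB family as its partners.

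Sequence was used only for the start sites that some of the regions held, from RefSeq promoter windows of GRCm38.p6, the assembly behind build mm10, that run from 250 bp before to 50 bp after a start. The first pair shown carried an E2f4 peak in all 4 libraries, and capitals mark the match to the E2F motif TTTNNCGC, searched on both strands. The window of Nemp2 (chr1:52630455-52630754, plus strand), which encodes a protein of the inner nuclear membrane, holds 1 match, and that of Fancc (chr13:63431696-63431995, minus strand), a subunit of the Fanconi anaemia core complex, holds none. The match at Nemp2 lies downstream of the start, whereas the E2f4 summits there lay upstream, at -125 to -95 bp. The E2f4 summits at Fancc lay just outside its window, so the sequence at those summits was not searched.
Nemp2: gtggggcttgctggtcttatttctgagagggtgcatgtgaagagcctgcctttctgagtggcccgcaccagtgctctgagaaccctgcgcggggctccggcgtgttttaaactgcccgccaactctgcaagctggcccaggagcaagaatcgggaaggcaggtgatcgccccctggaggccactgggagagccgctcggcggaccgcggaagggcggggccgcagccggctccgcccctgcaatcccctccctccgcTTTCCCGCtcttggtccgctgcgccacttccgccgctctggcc
Fancc: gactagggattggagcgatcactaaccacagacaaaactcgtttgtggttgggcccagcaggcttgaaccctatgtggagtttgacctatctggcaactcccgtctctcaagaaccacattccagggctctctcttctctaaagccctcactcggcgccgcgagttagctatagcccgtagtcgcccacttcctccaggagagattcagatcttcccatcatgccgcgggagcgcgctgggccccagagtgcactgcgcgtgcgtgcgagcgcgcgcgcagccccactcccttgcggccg
The next pair is shown because Rreb1 (chr13:37825788-37826087, plus strand), a zinc finger factor of Ras signalling, is the host of 1 of the 8 most enriched regions, and Abcg2 (chr6:58640296-58640595, plus strand), an efflux transporter, is the host of 1 of the 6 regions that were most shortened in H3K27ac in KO. Neither window held a match to any of the 7 motifs searched.
Rreb1: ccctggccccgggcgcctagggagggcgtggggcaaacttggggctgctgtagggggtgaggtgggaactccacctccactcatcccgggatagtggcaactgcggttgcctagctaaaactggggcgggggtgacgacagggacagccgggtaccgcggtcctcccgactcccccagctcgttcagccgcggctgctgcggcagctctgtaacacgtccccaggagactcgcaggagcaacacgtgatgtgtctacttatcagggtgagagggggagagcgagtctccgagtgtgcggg
Abcg2: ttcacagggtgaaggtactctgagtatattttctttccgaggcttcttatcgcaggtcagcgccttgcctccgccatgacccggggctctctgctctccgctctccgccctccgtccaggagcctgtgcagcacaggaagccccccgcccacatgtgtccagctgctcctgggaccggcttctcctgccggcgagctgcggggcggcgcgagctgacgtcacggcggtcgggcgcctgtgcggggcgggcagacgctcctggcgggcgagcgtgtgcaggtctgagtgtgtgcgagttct
The motifs were CAAAGTCCA for Hnf4a, TGTTTAC for Foxa, TTGCNNAA for C/EBP, TCAAGGTCA for Nr5a2, TGANTCA for AP-1, TTTNNCGC for E2F, and the Hnf1 motif, each read on both strands. A match is a description of the letters and not a binding site.

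Among the libraries, the H3K27ac library labelled WT stood apart from the others at sex-linked genes, and the labels give no sex. At Xist, the RNA that coats the inactive X chromosome of females, regions covered 10640 bp in KO H3K4me2, 10990 bp in WT H3K4me2 and 3536 bp in KO H3K27ac, against 0 bp in WT H3K27ac, over the gene and 2000 bp on either side. The Y-linked genes Ddx3y, Eif2s3y, Uty and Kdm5d were covered over 3161, 1938, 1766 and 889 bp in WT H3K27ac, and over 0 bp in the other 3 histone libraries. The H3K27ac difference between KO and WT therefore cannot be told apart from a difference in sex, while both H3K4me2 libraries had the same pattern at these genes. Counts that rest on WT H3K27ac are given without it where that was possible. The E2f4 lists held no peak at any of the 5 genes. All values below are positions and lengths of called regions, the lists hold no read counts, and the depth of the libraries is unknown.

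Hepatocytes were isolated from the fixed tissue, per the labels, and this could be set against marker genes at their start sites. All 20 hepatocyte genes with a RefSeq start site in the tables carried H3K27ac there in KO, and 19 of 20 did in WT. Of 10 endothelial genes 9 were marked in KO and 10 in WT, of 11 macrophage genes 5 in KO and 8 in WT, of 9 lymphocyte genes 2 in each, of 11 stellate cell genes 3 in KO and 5 in WT, and of 6 cholangiocyte genes 2 in KO and 1 in WT. H3K4me2 was at 9 stellate cell starts in KO and 8 in WT, at 10 endothelial starts in KO and 7 in WT, at 3 macrophage starts in each, at 1 lymphocyte start in KO and 3 in WT, and at 3 cholangiocyte starts in each. Aif1, Cd5l and Marco of macrophages, Cd79a, Cd8a, Il7r, Klrb1c and Nkg7 of lymphocytes, Acta2 of stellate cells, and Cftr and Krt7 of cholangiocytes had neither mark at the start in any library. In bulk chromatin, fewer cells of a type and less mark per cell cannot be told apart.

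Regions of this kind made up most of the distal H3K4me2 landscape of the width range. Of 65454 regions on the autosomes 27952 were in the width range, and 8539 of these were over 10000 bp from gene ends. The 6264 regions with both marks in both genotypes were 73.4% of these 8539. A further 366 lacked H3K27ac in WT alone, 702 lacked it in KO alone, 630 lacked it in both, and 577 had no H3K4me2 region in KO. Without the requirement on the WT H3K27ac library the set would hold 6630 regions. Under the same rules for marks and width, 15543 regions lay within 10000 bp of a gene end, and these gene-near active regions serve below as the main comparison.

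The limits of the rule cut through a continuous range. The narrowest of the distal active regions were 1000 bp wide (5 regions) and the widest 4995 bp, while the nearest outside were 999 and 5000 bp. The region closest to a gene end was 10001 bp away and the nearest outside was 10000 bp away. A further 3573 regions were alike except for being narrower and 392 except for being wider. Overlap could be small, down to 25 bp for KO H3K4me2, 7 bp for KO H3K27ac and 26 bp for WT H3K27ac.

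Most of these regions sat inside genes, and by the distance rule only genes longer than 20000 bp could hold one. How much of all sequence that far from gene ends lies inside genes was not computed. The distal active regions were inside a gene in 4834 cases (77.2%), against 66.8% of distal H3K4me2 regions without H3K27ac. Inside a protein-coding gene were 4613 (73.6%). Of gene-near active regions 86.4% overlapped a gene, a share that includes regions lying across a gene end. The nearest gene end was 10 to 20 kb away for 2758 regions (44.0%), 20 to 50 kb for 2461 (39.3%), 50 to 100 kb for 786 (12.5%) and over 100 kb for 259 (4.13%). The gene body share was 74.1% in the nearest of these bands and 81.5% in the farthest. The regions had a median width of 1736 bp (quartiles 1325 and 2479 bp), against 2240 bp for gene-near active regions and 1236 bp for distal regions without H3K27ac. They occurred on all 19 autosomes, at 7.59% of the WT H3K4me2 regions of chromosome 7 and up to 11.4% of those of chromosome 16.

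The label distal held for distance to gene ends but not fully for start sites. A RefSeq start site lay in 215 regions (3.43%), against 44.6% of gene-near active regions, since a long gene can have further starts far from its ends. The 249 promoter windows in these regions had a median GC content of 54.7%, against 60.7% for the 9437 windows in gene-near active regions and 53.0% for all 31396 autosomal windows. The C/EBP motif was in 12.9% of them and in 10.9% of all windows, AP-1 in 6.83% and 7.84%, Foxa in 3.61% and 3.71%, and E2F in 4.42% and 5.13%. In windows of gene-near active regions the shares were 8.32% for C/EBP, 4.37% for AP-1, 2.60% for Foxa and 8.98% for E2F. The rarer motifs had few matches: Hnf4a in 4 of the 249 windows (1.61%, against 0.487% of all), Hnf1 in 1 (0.402%, against 0.405%) and Nr5a2 in 0 (against 0.417%). Regions with a start site were wider, with a median of 2706 bp against 1715 bp for those without.

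**Figure D1:**
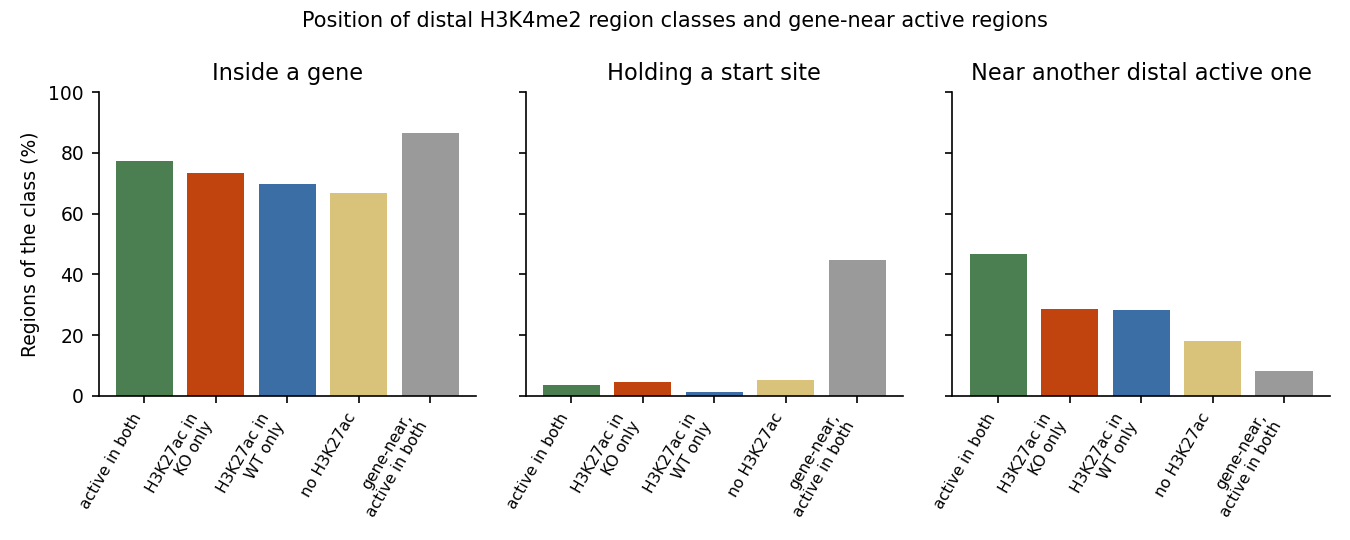
Share of regions (%) that overlap a gene, hold a RefSeq start site, or have a distal active region other than themselves under 12.5 kb away. The classes are the 6264 distal regions active in both genotypes, the other classes of distal H3K4me2 regions and gene-near active regions. A distal region that overlaps a gene lies inside it, while a gene-near one can lie across a gene end. The distal active regions lie inside a gene in 77.2% of cases and hold a start site in 3.43%, and 46.5% of them had another of their kind nearby.

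Distal active regions lay close to one another, as gene-near active regions did. Of the 6264, 2915 (46.5%) had another under 12.5 kb away, in 1137 clusters, and of the 15543 gene-near active regions 7770 (49.99%) had another of their own kind that near. A distal active region was that near to 28.7% of distal regions with H3K27ac in KO alone, 28.3% of those with it in WT alone, 17.9% of those with none, and 8.07% of gene-near active regions, a class that by its rule lies where these regions cannot. Without the requirement on WT H3K27ac the clustered share was 46.8%. Most clusters were pairs (747) or triplets (245), and 63 clusters held 5 or more regions, 358 in all.

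The largest cluster lay in the insulin receptor gene Insr. Its 9 regions spanned 52314 bp (chr8:3211334-3263647), and H3K27ac covered 87.7% of their length in KO and 96.3% in WT. Vps13d, which encodes a lipid transfer protein, and Rbm47, which encodes an RNA-binding protein, each held a cluster of 8, with H3K27ac over 94.8% in KO and 92.7% in WT for Vps13d and over 96.4% in KO and 96.7% in WT for Rbm47. The 7 regions of the actin regulator Mtss1 were covered over 100% of their 21835 bp in both genotypes. The 7 of Akap13, an anchoring protein of protein kinase A, were covered over 74.1% in KO and 93.5% in WT, the widest gap of the 5 clusters.

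Some genes held many regions. Of 9307 genes long enough to hold one, 2093 did, 209 held at least 5 and 31 at least 10. The genes with most, chosen after their counts were seen, were the zinc finger repressor gene Zbtb20 with 20, Akap13 with 19, the corepressor gene Rere with 17, the protein kinase C gene Prkce with 16 and the recombination gene Rad51b with 15. In Zbtb20, the repressor of alpha-fetoprotein in adult liver, H3K27ac covered 79.96% of the region length in KO and 82.9% in WT. These genes are long, Zbtb20 spanning 758704 bp (chr16:42875689-43634392), and the counts were not scaled by length.

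The chromatin marks covered most of the length of the typical region in both genotypes. KO H3K27ac covered a median of 93.5% of a region, WT H3K27ac 96.1% and KO H3K4me2 88.7%. Coverage was complete in 2598 regions for KO H3K27ac, 2724 for WT H3K27ac and 1631 for KO H3K4me2, and was under 50% in 907, 853 and 686. The most enriched H3K27ac region over each had a median width of 2242.5 bp in KO and 2293.5 bp in WT. For H3K4me2 the median was 1802 bp in KO and 1736 bp in WT, where the rule capped the width. The H3K27ac region was wider than the distal active region in 59.9% of cases in KO and 63.1% in WT. In gene-near active regions the order was reversed, with 2066 bp for H3K27ac and 2417 bp for H3K4me2 in KO. In WT these were 2063 and 2240 bp. The widest H3K27ac region over any of them was 113690 bp in KO and 113309 bp in WT, and 399 regions in KO and 356 in WT lay under an H3K27ac region of over 10 kb. By the authors' fold enrichment, which is comparable only within a list, the median region stood at the 64.5th percentile of the KO H3K4me2 list, the 59.2nd of WT H3K4me2, the 66.7th of KO H3K27ac and the 70.0th of WT H3K27ac. Gene-near active regions stood at 84.0, 81.3, 79.7 and 80.8.

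**Figure D2:**
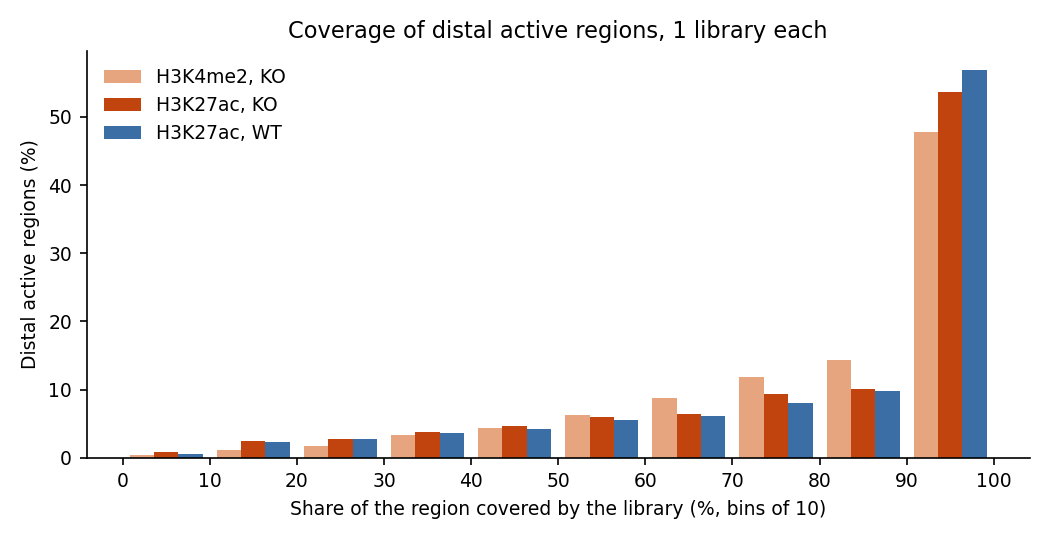
Share of each distal active region covered by the KO H3K4me2, KO H3K27ac and WT H3K27ac libraries, in bins of 10% (x axis), with the share of the 6264 regions in each bin (y axis, %). The last bin holds 47.7% of regions for KO H3K4me2, 53.6% for KO H3K27ac and 56.8% for WT H3K27ac.

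The H3K27ac length was about as often longer as shorter in KO. The median length inside a region was 1427 bp in KO and 1451 bp in WT, and the median of the KO minus WT differences was 0 bp (quartiles -187 and 137 bp). H3K27ac was longer in KO in 2160 regions, shorter in 2401 and equal in 1703. It was at least 2-fold shorter in KO in 457 regions (7.30%), against 5.93% of all 21807 active regions of the width range, and at least 2-fold longer in 361 (5.76%), against 4.90%. Both shares were near the background, and with 1 library per genotype there is no test and no replicate check. Single regions outside clusters were at least 2-fold shorter in KO in 8.69% of cases and clustered ones in 5.69%. The shares at least 2-fold longer in KO were 6.21% and 5.25%, and those of equal length 21.6% and 33.6%. These lengths were cut at the edges of the region, so a region covered in full by both libraries counts as equal. In windows of 2500 bp either side of the midpoint, H3K27ac was longer in KO in 2928, shorter in 3097 and equal in 239. It was at least 2-fold shorter in KO in 665 windows (10.6%) and at least 2-fold longer in 493 (7.87%), and the share over all active regions was not computed for windows.

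The H3K4me2 difference depended on the list that the regions were taken from. Inside the regions, which are WT H3K4me2 regions, KO H3K4me2 can only be shorter, and it was at least 2-fold shorter in 688 (11.0%), against 6.90% of all active regions of the width range. In a window of 2500 bp either side of the midpoint, the median H3K4me2 length was 2014 bp in KO and 1996.5 bp in WT, longer in KO in 3156 regions and shorter in 3103. It was at least 2-fold shorter in KO in 463 of these windows (7.39%) and at least 2-fold longer in 147 (2.35%), and the windows too are centred on WT regions. Started from the KO list, the same rule gave 6428 regions, and H3K4me2 inside them was a median of 330 bp longer in KO. In windows centred on those regions the median was 2056 bp in KO and 1814 bp in WT, with H3K4me2 at least 2-fold shorter in KO in 82 (1.28%) and at least 2-fold longer in 743 (11.6%). Of the 6264 regions 4741 (75.7%) overlapped 1 of these, and 4725 (73.5%) of the 6428 overlapped 1 of the 6264.

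Regions where H3K27ac was shortened in KO were more often shorter in KO H3K4me2 as well. No test was made, and what part sex, depth or enrichment has in this was not tested. Among the 457 shortened regions the median windowed H3K4me2 difference, KO minus WT, was -291 bp, and 65.9% were shorter in KO. Among the 361 lengthened regions it was -17 bp with 51.2% shorter, and among the other 5446 regions 27 bp with 48.1% shorter. Across all 6264 regions the windowed differences of the marks had a Spearman rho of 0.13, which is weak and describes regions that share the same 4 libraries. The shortened and the lengthened regions were both narrow, with median widths of 1569 and 1513 bp, against 1776 bp for the others. Their median strength stood at the 20.4th and 30.3rd percentile among distal active regions, against the 54.1st for the others. Strength was ranked over the 4 histone lists, H3K27ac included, so these percentiles are not independent of how the groups were chosen. By WT H3K4me2 fold alone the shortened regions also stood lowest, followed by the lengthened ones and then the others.

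The 8 most enriched regions, by mean rank of the authors' fold over the 4 histone lists, were chosen for high values in both genotypes, and 6 of the 8 were covered almost in full by both H3K27ac libraries. The first (chr9:78519965-78522161) lay between Eef1a1, the translation elongation factor, and Slc17a5, the lysosomal sialic acid transporter, and was fully covered by all 4 libraries. The third lay in Nr5a2 (chr1:136945389-136950034), the nuclear receptor of bile acid and cholesterol genes, and the fourth in Rreb1 (chr13:37824969-37828889) over the start site whose sequence is shown above, both again fully covered by all 4. The others lay in Tacc2, a centrosomal gene, between Ankef1 and Snap25, near Smad7, the inhibitor of TGF-beta signalling, between Slc7a15 and Pum2, and between Wee1, the kinase that holds back Cdk1, and Swap70. The one near Smad7 was covered by H3K27ac over 81.2% in KO and 69.6% in WT, and the one between Slc7a15 and Pum2 over 66.2% in KO and 64.3% in WT. In the remaining 6, H3K27ac covered at least 98.9% in both.

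The regions farthest from any gene end carried both marks over most of their length. The farthest (chr17:93740479-93741908) was 407527 bp from the nearest gene end, and H3K27ac covered 100% of it in KO and 98.7% in WT. The second was deep inside Dpyd, the pyrimidine-degrading dehydrogenase, 390105 bp from its nearer end, with 85.3% in KO and 88.2% in WT. The third lay between Csmd3 and Trps1, with 88.0% in KO and 75.05% in WT.

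**Figure D3:**
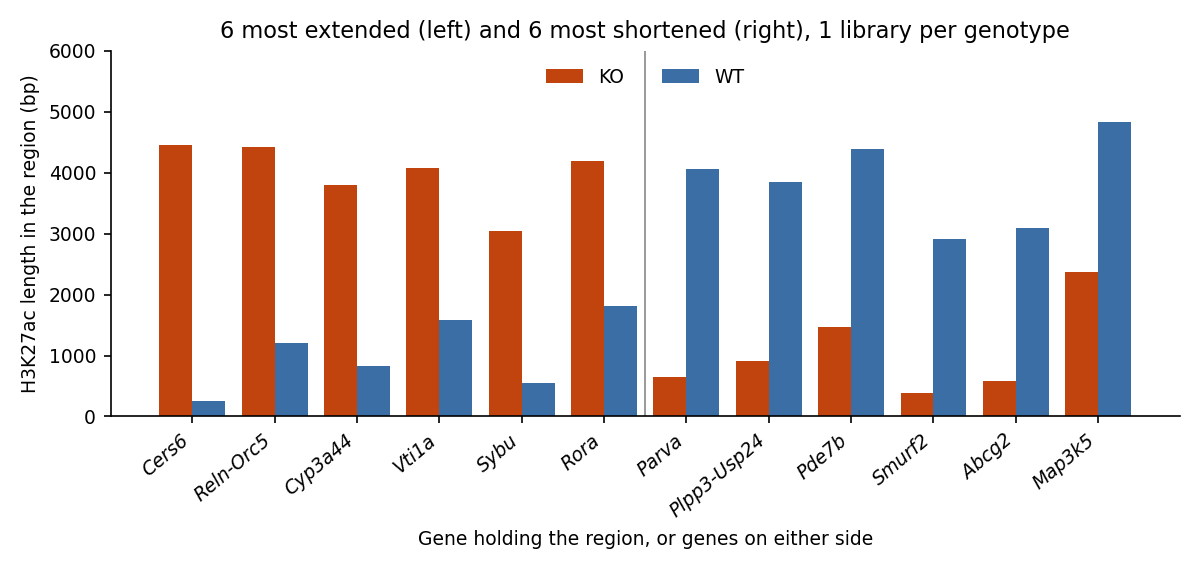
Length of H3K27ac (bp, y axis) inside the 6 distal active regions most lengthened in KO (left) and the 6 most shortened in KO (right), with KO and WT bars side by side for 1 library each. The lengthened regions hold 3035 to 4449 bp in KO and 249 to 1820 bp in WT, and the shortened ones 385 to 2376 bp in KO and 2908 to 4828 bp in WT.

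The regions with the largest differences of H3K27ac length lay in or near genes of varied function. In Cers6, a ceramide synthase gene (chr2:68942557-68947472), H3K27ac covered 4449 bp in KO and 249 bp in WT. The region between Reln and Orc5 (chr5:22431656-22436174) had 4428 bp in KO and 1207 bp in WT. The region in Cyp3a44, a cytochrome P450 gene with female-biased expression in mouse liver (chr5:145790693-145794883), had 3795 bp in KO and 830 bp in WT, with KO H3K4me2 over 55.0% of it. The lengthened regions in Vti1a, a SNARE gene, in Sybu and in the nuclear receptor gene Rora had 4074, 3035 and 4194 bp in KO, against 1576, 545 and 1820 bp in WT. KO H3K4me2 covered 43.1% of the region in Rora and 33.4% of the shortened region in Pde7b. Among the shortened ones, the region in Parva, which encodes the adhesion protein alpha-parvin (chr7:112495781-112499867), had 653 bp in KO and 4058 bp in WT although KO H3K4me2 covered all of it. The region in Abcg2 (chr6:58639400-58642495), over the start site shown above, had 581 bp in KO and 3096 bp in WT. The ubiquitin ligase gene Smurf2 had 385 bp in KO and 2908 bp in WT, the region near the phosphatase gene Plpp3 915 bp in KO and 3847 bp in WT, the phosphodiesterase gene Pde7b 1460 bp in KO and 4388 bp in WT, and the kinase gene Map3k5 2376 bp in KO and 4828 bp in WT. These regions were picked for their difference, and none of the values has a replicate.

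Because the H3K27ac libraries differed at sex-linked genes, the regions near genes with sex-biased expression in mouse liver are given apart. The lists were written after these values had been looked at and support nothing by themselves. Near 28 female-biased genes (within 100 kb) lay 45 distal active regions, and H3K27ac covered 84.8% of their summed length in KO and 61.3% in WT. It was longer in KO in 28 of the 45, shorter in 7 and equal in 10, and at least 2-fold longer in 13 and shorter in 0. Over all 6264 regions it was at least 2-fold longer in 5.76% and covered 81.7% of the summed length in KO and 82.6% in WT. Slc22a26, with 2192 bp in KO and 163 bp in WT, and Hao2, with 1276 bp in KO and 234 bp in WT, were examples, and the 2 regions near Cyp2a4 had 2596 bp in KO and 1330 bp in WT. Near 30 male-biased genes lay 18 regions, with 85.5% covered in KO and 94.4% in WT. H3K27ac was longer in KO in 4 of the 18, shorter in 6 and equal in 8, and at least 2-fold shorter in 2. Over all 6264 regions it was longer in KO in 34.5%, shorter in 38.3% and at least 2-fold shorter in 7.30%, and 18 regions are few to set beside these shares. Cyp7b1, the oxysterol hydroxylase gene, had 510 bp in KO and 1867 bp in WT, and Selenbp2 220 bp in KO and 824 bp in WT, while Mup20 had 1625 bp in KO and 1253 bp in WT. The regions near either list were 2 of the 457 shortened ones, 13 of the 361 lengthened ones and 48 of the other 5446. Leaving them out left 455 shortened regions. So few regions were removed that this cannot show what part sex has in the difference.

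Genes of hepatocytes and of the regenerative response often had a distal active region within 100 kb, as did clock, endothelial and lymphocyte genes. Such a region was near 7533 of all 20665 protein-coding autosomal genes (36.5%), and this share depends on gene length and on how densely an area is marked. It was near 15 of 23 hepatocyte identity genes, 16 of 28 genes of hepatic metabolism, 18 of 25 genes of regeneration signalling and immediate early response, 9 of 16 clock genes and 9 of 15 endothelial genes. For cell cycle genes it was 16 of 36, for lymphocyte genes 7 of 14, for cholangiocyte genes 2 of 10, and for macrophage and for stellate cell genes 2 of 14 each. The counts describe lists chosen with earlier results known, and were not tested.

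**Figure D4:**
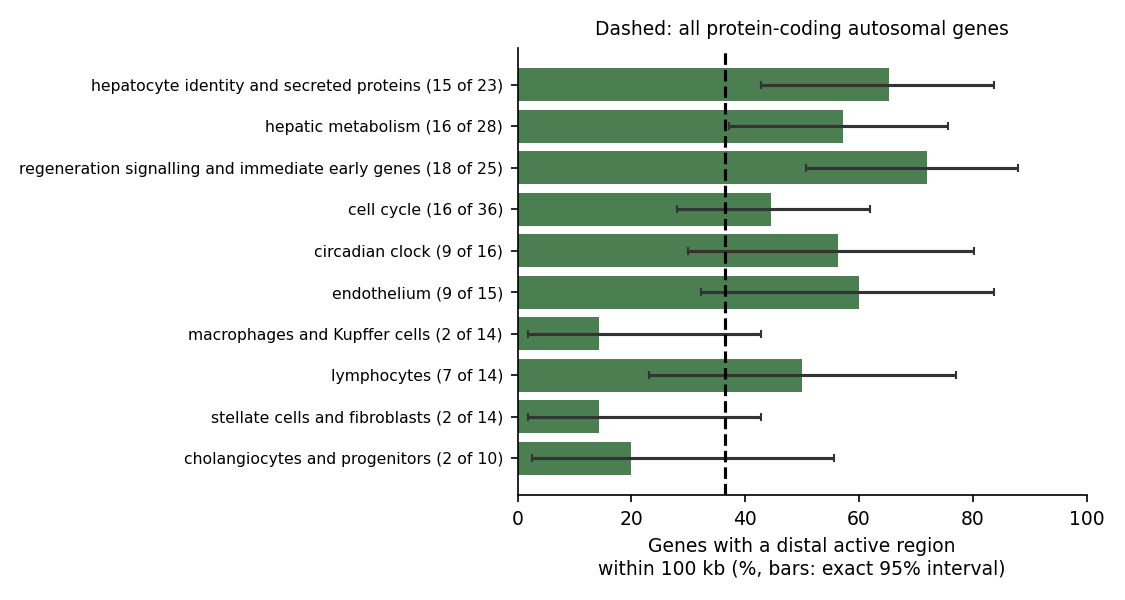
Share of genes in each list (%) with a distal active region within 100 kb, with the number of genes and exact 95% intervals for counting error, beside 36.5% for all protein-coding autosomal genes (dashed line). The regeneration list has the highest share (18 of 25) and the macrophage and stellate cell lists the lowest (2 of 14 each).

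Among hepatocyte identity genes, the factor gene Nr5a2 had most regions, while the factor genes Foxa1, Foxa3 and Cebpa had none. Nr5a2 had 9, of which 7 lay inside the gene, with H3K27ac over 89.9% of their length in KO and 91.1% in WT. Foxa2, the pioneer factor of the liver, had 5 beside the gene, covered over 100% in KO and 85.5% in WT, and Apob, the protein of VLDL particles, had 5, over 88.5% in KO and 86.8% in WT. The summed coverage over the 42 regions of this list was 84.1% in KO and 86.5% in WT, beside 81.7% in KO and 82.6% in WT over all 6264 regions. Hnf4a had 1 region, inside the gene, fully covered in both genotypes, and Alb had 1, 77557 bp away, covered over 31.8% in KO and 29.1% in WT.

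In hepatic metabolism, Ppara, the nuclear receptor of fatty acid oxidation, had 7 regions with H3K27ac over 86.7% in KO and 94.2% in WT. Cps1, the first enzyme of the urea cycle, had 5, over 90.6% in KO and 88.9% in WT. Cyp3a11, the main xenobiotic P450 of the list, had 4, over 93.5% in KO and 45.7% in WT, and they include the region in the female-biased Cyp3a44 named above. Acaca, of fatty acid synthesis, also had 4, over 91.9% in KO and 97.7% in WT. The 46 regions of the list summed to 89.8% in KO and 84.7% in WT.

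In the regeneration list, Met, the receptor of hepatocyte growth factor, had 6 regions with H3K27ac over 94.3% in KO and 81.2% in WT. Dusp1, a MAP kinase phosphatase of the immediate early response, had 5, over 93.4% in KO and 100% in WT. Stat3, the factor downstream of interleukin 6, had 4, over 91.8% in KO and 86.4% in WT, and Igfbp1, an insulin-like growth factor binding protein induced after hepatectomy, also had 4, over 98.7% in KO and 100% in WT. The 40 regions of the list summed to 86.1% in KO and 87.5% in WT.

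Among the cell cycle genes listed, Cdk6, the partner of D cyclins, had most regions. It held 9 inside the gene, with H3K27ac over 70.9% in KO and 78.6% in WT. Cdk1, the mitotic kinase, had 3 nearby, over 81.8% in KO and 97.7% in WT. Ccne2, E2f3, E2f8 and Mki67 had 2 each, over 48.1% in KO and 90.8% in WT for E2f3, 84.9% in KO and 100% in WT for Ccne2, 87.0% in KO and 100% in WT for E2f8, and 100% in both for Mki67. The 30 regions of the list summed to 75.5% in KO and 83.7% in WT. H3K27ac was shorter in KO in 14 of the 30 and longer in 8, beside 2401 and 2160 of all 6264 regions. The single regions near E2f1, E2f2, Cdk2 and Top2a were among those longer in KO. Of the genes for MCM helicase subunits, Mcm2 to Mcm7, none had a distal active region within 100 kb. In the clock list, Rora held 9, over 93.1% in KO and 82.5% in WT, Npas2 had 6, over 73.0% in KO and 91.1% in WT, and Bhlhe40 had 3, over 96.3% in KO and 92.8% in WT.

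Regions also lay near genes of other liver cells. Pecam1, the endothelial junction protein, had 5, with H3K27ac over 90.1% in KO and 100% in WT, and Kdr, the VEGF receptor, had 3, over 76.4% in KO and 65.0% in WT. Stab2, Lyve1 and Ptprb also had 3 each, over 66.9% in KO and 99.3% in WT for Stab2, 93.7% in KO and 91.7% in WT for Lyve1, and 100% in both for Ptprb. The 23 regions of the endothelial list summed to 84.5% in KO and 94.0% in WT, the 11 of the lymphocyte list to 90.7% in KO and 79.3% in WT, and the 3 of the macrophage list to 82.6% in KO and 70.5% in WT. Ptprc, the pan-leukocyte phosphatase CD45, had 3, over 72.9% in KO and 70.8% in WT, and Klrb1c of natural killer cells had 3, over 97.5% in KO and 82.1% in WT. Il7r had 2, over 92.7% in KO and 60.4% in WT. The macrophage gene Cd68 had 2, over 75.9% in KO and 80.1% in WT, Adgre1 had 1, over 97.8% in KO and 49.0% in WT, and the stellate cell genes Reln and Vim, and the cholangiocyte genes Sox9 and Spp1, had 1 each. The region near Reln is the one between Reln and Orc5 named above. A region near a gene is not shown to act on it, and which cells carried the marks was not tested.

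E2f4 peaks were rare in these regions. A peak overlapped 4 and 9 of the 6264 regions in the KO libraries and 25 and 14 in the WT libraries. The means were 6.5 ± 3.54 in KO and 19.5 ± 7.78 in WT (SD, n = 2 each), and the groups did not overlap, but an exact two-sided permutation test gave p = 0.333, the smallest that 2 against 2 libraries allow. The KO libraries also had fewer peaks in all, 287 and 683 against 1791 and 1058 in WT, and 1.42% and 1.35% of the autosomal peaks lay in these regions in KO, against 1.49% and 1.36% in WT.

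Gene-near active regions carried E2f4 far more often. The share with a peak was 0.0639% and 0.144% of distal active regions in KO, and 0.399% and 0.223% in WT. For gene-near active regions it was 1.13% and 3.24% in KO and 6.37% and 4.62% in WT. The difference was -3.63 percentage points on average and had the same direction in 4 of 4 libraries (exact sign-flip test over the libraries, two-sided, p = 0.13, the smallest that 4 libraries allow). In each library the gene-near share was 15.96 to 22.6 times the share of distal active regions. Peaks were also rare in the other distal classes. In any 1 library they overlapped at most 1 of the 630 regions without H3K27ac. They overlapped 0 of the 702 with it in WT alone and at most 2 of the 366 with it in KO alone. A start site lay in 44.6% of gene-near and 3.43% of distal active regions, and its part in the difference was not tested.

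**Figure D5:**
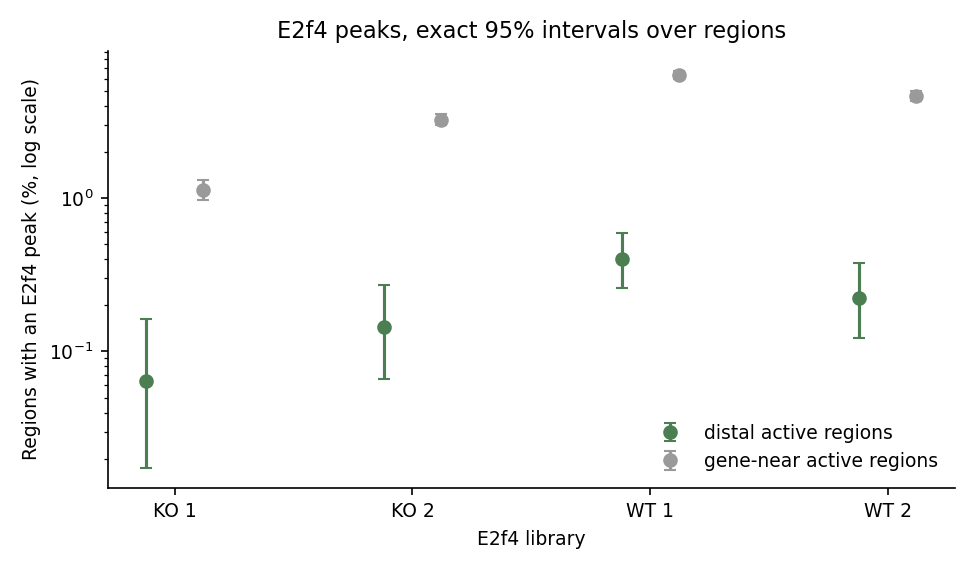
Share of regions with an E2f4 peak (%, log axis) in each of the 4 E2f4 libraries, for distal active and gene-near active regions, with exact 95% intervals that cover counting error over regions only. Distal active regions lie between 0.0639% and 0.399%, and gene-near active regions between 1.13% and 6.37%.

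Of the 34 distal active regions with a peak in any library, 23 had it in 1 library, 7 in 2, 1 in 3 and 3 in 4. The WT libraries shared 8, of which 4 were also in a KO library, and 3 were found in KO alone. A start site was in 8 of the 34, and 3.72% of the regions with a start site carried E2f4 against 0.430% of the others. The median GC content of those 8 promoter windows was 67.7%, and 2 of them held the E2F motif. The match at Nemp2 was on the other side of the start from its summits. At Fancc, Tnpo1 and Ipo5 the summits lay outside the window that was searched.

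The regions with E2f4 in all 4 libraries lay in Fancc, Nemp2 and Fmo1. The Fancc summits were 52 to 63 bp downstream of the start shown above, and the Nemp2 summits at -125 to -95 bp relative to its start. Fmo1, a flavin monooxygenase gene, had no start site in its region (chr1:162852905-162854659), which all 4 histone libraries covered in full. The region with E2f4 in 3 libraries was near Nrarp, a Notch feedback regulator. Those with E2f4 in both WT libraries and neither KO library lay in Tnpo1 and Ipo5, a pair of nuclear import receptor genes, in Rbbp8, which encodes the DNA end resection factor CtIP, and in Slf2, of the SMC5/6 pathway. Tnpo1 summits were 627 and 701 bp downstream of its start, and Ipo5 summits were at -393 and -376 bp relative to its start. Stag1, a cohesin subunit gene, and Pkhd1, the fibrocystin gene, had a peak in 1 library of each genotype.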

How the data were processed

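Each of the 8 immunoprecipitations had its own peak list (narrowPeak for E2f4, broadPeak for the histone marks), and data of the 8 inputs were not used here. Sample titles gave the groups and the replicate numbers. Per the labels' protocols, frozen tissue was crosslinked in 1% formaldehyde over 20 min before hepatocyte isolation. The submitters' processing notes name Bowtie2 2.2.3, MACS2 2.0.10.20131216, Picard, HOMER and mm10 without saying what each did. Each deposited list gives a region's position, a fold enrichment (a ratio to background, used only for ranks within a list), −log10 p-values, −log10 q-values (used as a filter in an alternative), a score that was not used and, for E2f4, the deposited summit offset. Read counts were not used here and depth is unknown. A list from a shallower library tends to hold fewer regions.

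Lengths, overlaps and distances were computed with Python 3.11.15, numpy 2.4.6, pandas 2.3.3 and scipy 1.17.1, and the functions were tested on simulated data. Gene ends and promoter sequences came from RefSeq tables of GRCm38.p6, and exons and introns were not analysed here. The motif search planned for the regions themselves was made in promoter windows only, because the genome sequence was not used here. Regions under 12.5 kb apart formed a cluster. Named regions followed a rule by rank, change and E2f4, and per list the 3 genes with most regions were taken, with those that tied, except for 1 gene that is not reported here. Hnf4a, Alb, Zbtb20 and the other host genes, the MCM genes and the sex-biased genes were chosen after their values were seen. The regions, the 10 gene lists and the 2 sex-biased lists were chosen with earlier results of these data known. Histone differences were not tested, and E2f4 was compared over libraries with exact permutation tests. Intervals cover counting error only.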

Additional observations from a re-analysis of the deposited data

How the results depend on the processing

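With 1 library per genotype and mark, lengths in KO and WT cannot be separated from differences between 2 libraries in depth, enrichment or sex. Of 98 recomputed values 3 reversed and 32 moved. For counts, moved means by more than 1.5 times, and for medians and shares past their counting interval. E2f4 differences were judged by direction alone, so they could be reversed but could not count as moved. The cause was not tested. H3K4me2 length in KO as a median share of that in WT inside the regions, 88.7%, was 92.8% where each list had to cover 50% of the region, 96.2% at −log10 q of at least 5, 122% when started from the KO list 100.4% in the window around the midpoint and 111% in that window with the KO list as the start, both windows being alternatives chosen after seeing the data. The median H3K27ac coverage in KO minus that in WT, -2.52 percentage points, was 0 with the 50% rule and 0 at −log10 q of at least 5. The number of regions, 6264, was 3506 over 20000 bp from gene ends and 1089 at −log10 q of at least 5. The 457 regions with H3K27ac at least 2-fold shorter in KO were 692 over 5000 bp, 275 over 20000 bp, 718 with protein-coding genes only, 0 under the 50% rule, which by its construction leaves none, and 8 at −log10 q of at least 5. The share inside a gene, 77.2%, was 75.5% over 5000 bp, 79.5% over 20000 bp, 63.4% with protein-coding genes only and 70.1% at −log10 q of at least 5. The clustered share, 46.5%, was 44.9% over 20000 bp, 50.5% with protein-coding genes only, 49.9% with no upper width, 41.3% under the 50% rule, 12.5% at −log10 q of at least 5 and 30.0% with gaps under 5000 bp.

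Within 50000 bp, listed genes with a region were 5 for the cell cycle, 5 for the clock, and 1 each for macrophages, stellate cells and cholangiocytes, beside 22.8% of all genes. By nearest gene only they were 9 for hepatocyte identity, 5 for the cell cycle, 5 for the clock, 5 for endothelium, 2 for lymphocytes and 0 for macrophages, beside 14.0% of all genes.

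The E2f4 difference of -13 regions between KO and WT lay between -18.5 and -7.5 when each library was left out, was -8.5 at −log10 q of at least 5, -25.5 over 5000 bp and -2.5 over 20000 bp, and p was 0.333 or more in every case. The difference from gene-near regions lay between -4.49 and -2.85 percentage points when each library was left out. Same-numbered E2f4 libraries had deviations with a correlation of 0.19 over 2105 merged regions, from 2 pairs only, which does not show that the numbers pair the samples. With the replicate number as a block the differences were -13 regions (exact p = 0.5) and -3.63 percentage points (exact p = 0.5), the smallest p that 2 pairs allow.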
